A study of Mus musculus with 14 samples.

Results

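The serpin superfamily of the mouse was followed gene by gene in RNA from whole liver and from leukocytes sorted out of liver. Members were the rows of the deposited count table whose Ensembl identifier maps to a mouse symbol of the form Serpin, a clade letter from a to i and a number. Pseudogenes were left out, as was 1 further gene. This gave 61 genes of 48794. Clade A had 24 of them and clade B 26, clade E had 3, clades F and I had 2 each, and clades C, D, G and H had 1 each.

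Serpins are proteins that mostly inhibit serine proteases by a suicide mechanism. The protease cleaves an exposed loop of the serpin, the serpin then changes shape, and both stay joined in an inactive complex. The liver secretes into plasma the serpins that hold clotting, fibrinolysis, complement and inflammatory proteases in check. Clade B serpins lack a classical signal peptide and act mostly inside cells, where several of them shield leukocytes from their own granule proteases. Some serpins inhibit nothing and carry hormones or assist protein folding instead.

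All samples came from untreated wild-type mice, per the labels, which give neither age nor sex. In 12 libraries the RNA came from CD45+ cells, that is leukocytes, sorted from liver needle biopsies by flow cytometry, at 2500, 5000, 10000 or 20000 cells in 3 libraries per cell number. Bulk liver tissue, the control, gave the other 2. Total counts per library ran from 6723357 to 14496314. Whether the libraries of a group stem from different animals is not stated in the labels. The p-values therefore reflect no more than the scatter among these libraries, which may be technical, and sorting and tissue handling differ together with the groups. Ptprc, which encodes CD45, stood at 17.4 and 25.1 CPM in bulk liver and at 2067 to 2309 CPM in sorted cells. CPM here are counts scaled to library size with TMM factors (trimmed mean of M values). In bulk tissue, fewer cells of a type and less RNA per cell cannot be told apart.

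Serpin transcripts made up far more of the bulk liver libraries than of the sorted ones. They took 3.83% and 3.91% of all counts in the bulk libraries, and 0.0624% at the lowest, 0.0717% at the median and 0.0771% at the highest of the 12 sorted libraries. The groups were thus far apart in every library. Clade A, which holds most plasma serpins, supplied 3.28% ± 0.0482 of counts in bulk liver (SD, n = 2) and 0.0296% ± 0.00293 in sorted cells (SD, n = 12). Clade B went the other way, with 0.00423% ± 0.000333 in bulk liver (SD, n = 2) and 0.0347% ± 0.00198 in sorted cells (SD, n = 12). Clade B took a larger share of counts than clade A in 11 of the 12 sorted libraries. By TPM it did so in 3 of them, so their order depends on the unit. TPM, as deposited, divide by transcript length before scaling to a fixed total, so that genes can be set side by side. By this measure Serpina3k led in bulk liver with 6345 TPM (mean of 2 libraries), before Serpina1e with 6134, Serpina1c with 4924 and Serpinc1 with 3087.

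Of the 61 members, 48 had at least 1 count and 13 had none in any library. A count of 0 allows up to 3 counts, or 0.392 CPM over the bulk pair and 0.0233 CPM over the 12 sorted ones, counting error alone considered. The number of members with a count was 34 and 36 in the bulk libraries and 30 to 36 in the sorted ones, with a median of 32.5. The kinds of serpin transcript that were seen were thus about as many in both sources, while their amounts were not. The filter on low counts left 32 members for testing between sorted cells and bulk liver. Members that passed it through 1 group only were those high in that group, so the 32 do not stand for all 61.

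In the quasi-likelihood test of edgeR, with p adjusted over all genes by Benjamini-Hochberg, 8 members were higher in sorted cells, 22 were lower and 2 were not called. Over all 16294 genes tested, 41.8% were called higher, 38.5% lower and 80.3% in either direction. The median log2 difference of the tested members, sorted minus bulk, was -8.63, beside 0.17 over all tested genes. The sorted libraries did not overlap the bulk libraries for 30 of the 32 tested members, against 78.3% of all tested genes. Of the 22 lower members, 19 were lower by more than 256-fold, as were 4.93% of all tested genes, but with scaling to library totals 9 members passed that limit. With scaling to library totals alone the median over all genes moved from 0.17 to 1.37 and 10737 genes were higher against 3654 lower, so sizes, and the sign of differences near 0, depend on the scaling.

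**Figure D1:**
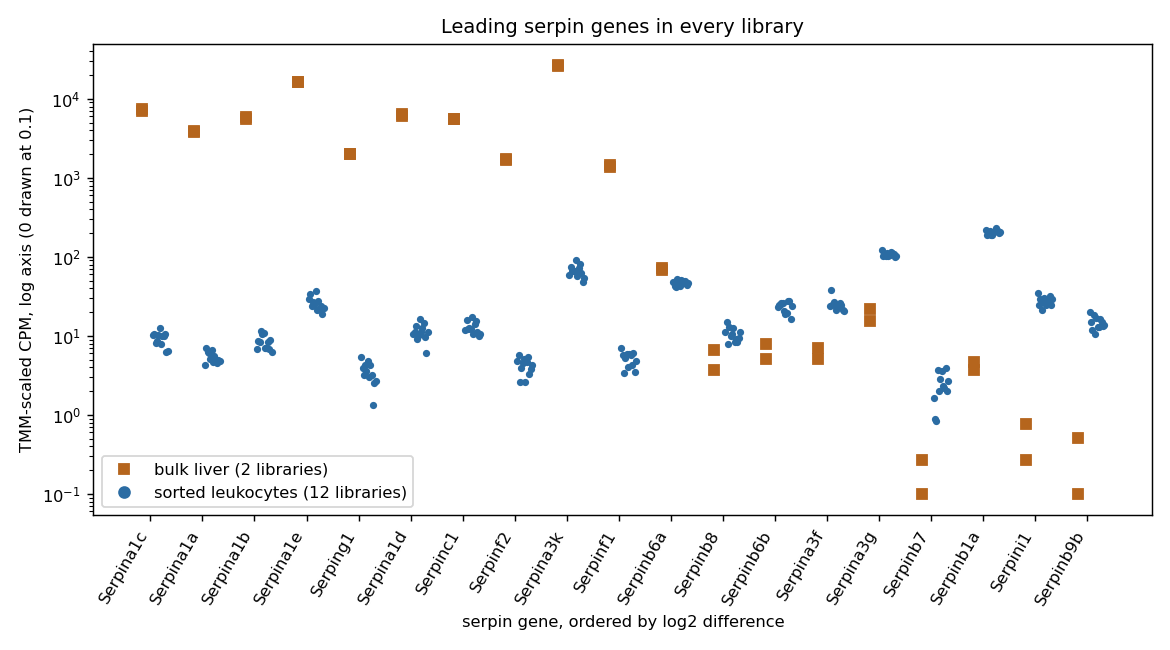
TMM-scaled CPM on a log axis of 19 serpin genes in each of the 2 bulk liver libraries (squares) and 12 sorted leukocyte libraries (circles), ordered by their log2 difference, with 0 drawn at 0.1. Serpina3k stands at 25742 and 26513 CPM in bulk liver and at 48.8 to 92.2 in sorted cells, while Serpinb1a stands at 3.74 and 4.61 in bulk liver and at 187 to 230 in sorted cells.

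**Figure D2:**
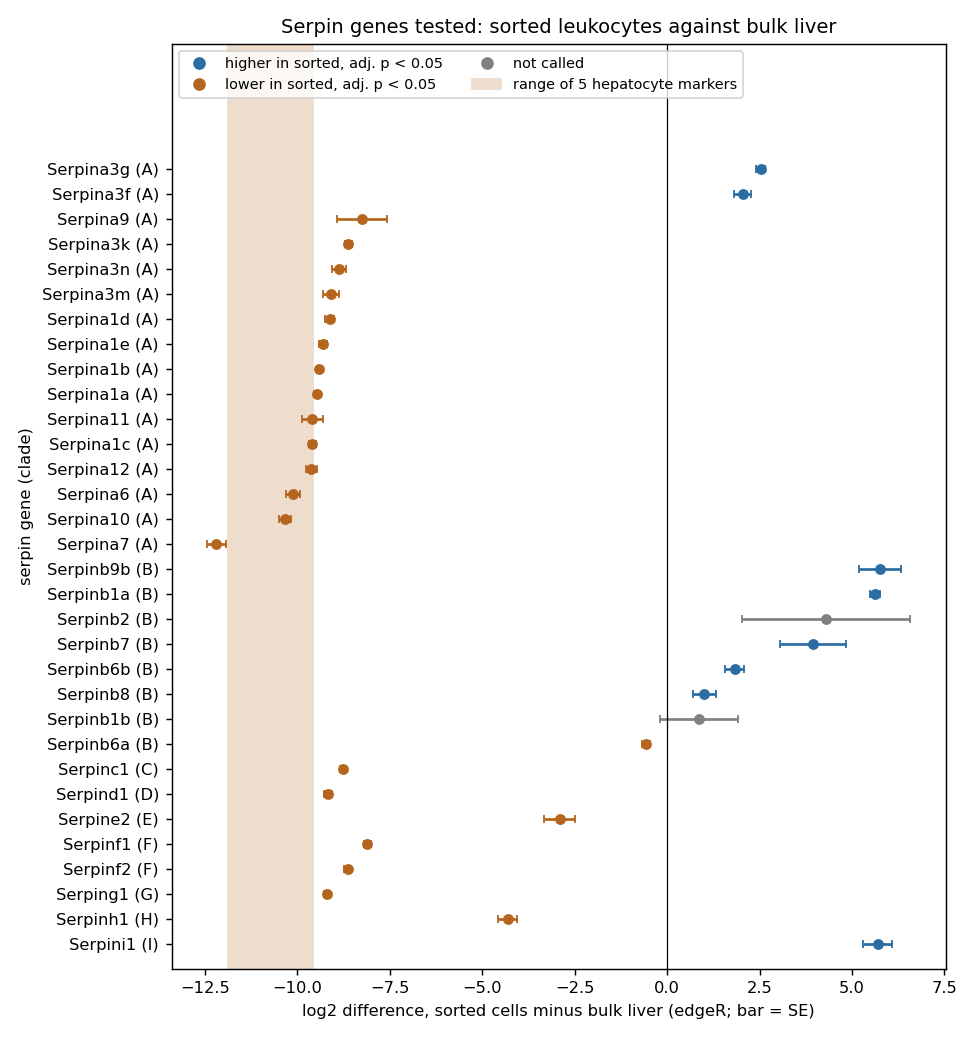
Log2 difference, sorted cells minus bulk liver, with its standard error, for the 32 serpin genes tested with edgeR on 14 libraries, grouped by clade, with the range of 5 hepatocyte marker genes shaded. Clade A spans -12.19 to 2.53 and clade B spans -0.57 to 5.75. Serpinb6a, at -0.57, turns positive when counts are scaled to library totals only.

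The plasma serpin most studied in humans, alpha-1 antitrypsin, which restrains neutrophil elastase, has several gene copies in the mouse, Serpina1a to Serpina1e, all on chromosome 12. All 5 were lower in sorted cells, with log2 differences from -9.13 to -9.60. Serpina1e had 16214 and 16575 CPM in the bulk libraries and 18.7, 24.3 and 37.0 CPM at the lowest, median and highest sorted library. Serpina1c had 6934 and 7366 CPM in bulk liver and 6.26, 9.91 and 12.6 in sorted cells. Both genes were thus high in each bulk library and low in each sorted one, with no overlap. Their log2 differences were -9.31 (SE 0.10, adjusted p = 4.6e-20, edgeR) and -9.60 (SE 0.09, adjusted p = 3.7e-23).

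The remaining copies had the same order of groups. Serpina1d stood at 6153 and 6403 CPM in bulk liver and at 6.07, 11.2 and 16.4 in sorted cells. Serpina1b stood at 5558 and 5842 CPM in bulk liver and at 6.25, 8.41 and 11.4 in sorted cells. Serpina1a stood at 3816 and 3864 CPM in bulk liver and at 4.25, 5.04 and 7.13 in sorted cells. No sorted library came near a bulk library for any of them, and the log2 differences were -9.13 (SE 0.11), -9.41 (SE 0.06) and -9.48 (SE 0.07), with adjusted p of 1.4e-18, 2.5e-27 and 7.3e-27 (edgeR). Summed over the 5 copies, the sorted level was 0.154% of the bulk level.

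Reads can be shared among these copies. Their coding sequences were 96.3% to 98.5% identical, and of all stretches of 75 bases in their transcripts, 19.0% for Serpina1b, 19.7% for Serpina1e, 37.1% for Serpina1d, 49.3% for Serpina1a and 66.1% for Serpina1c also occur in another gene. The labels do not say how multiply matching reads were counted, so the level of a single copy is uncertain. The sum does not depend on how reads were split among the copies, but it too is short if shared reads were dropped. In bulk liver Serpina1e held 41.7% ± 0.38 of the family's counts but 31.5% ± 0.31 of its TPM (SD, n = 2), and Serpina1c held 18.2% ± 0.327 of counts but 25.3% ± 0.36 of TPM. The TPM were deposited by the authors. In sorted cells Serpina1e held 42.8% ± 3.18 of the counts (SD, n = 12), which differs from its bulk share by less than that SD. Serpina1c held 15.3% ± 1.81 of the counts and 21.9% ± 2.74 of the TPM in sorted cells, below its bulk shares by more than the SD, and these shares were not tested. In addition, 31.5% of the exon bases of Serpina1c overlap B430119L08Rik on the opposite strand, and the labels do not say whether counting used strand.

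**Figure D3:**
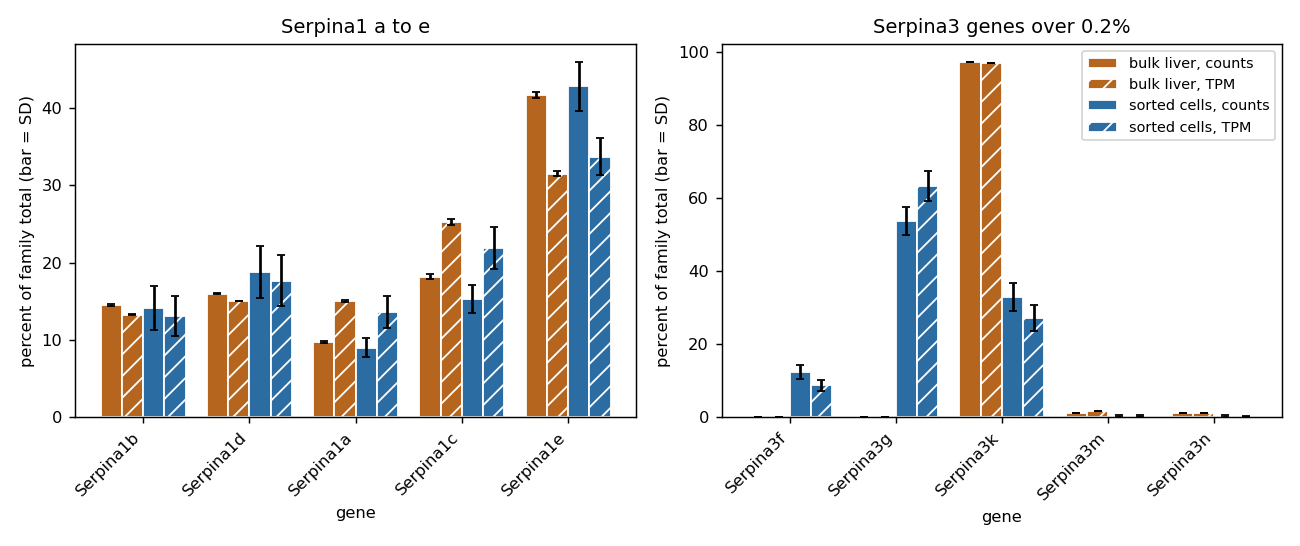
Percent of the family's summed counts (plain bars) and TPM (hatched bars) held by each Serpina1 copy and by the Serpina3 genes above 0.2%, in bulk liver (n = 2) and sorted cells (n = 12), with SD. Serpina1e leads its family in both sources with 41.7% and 42.8% of counts, while Serpina3k holds 97.4% of Serpina3 counts in bulk liver and Serpina3g holds 53.9% in sorted cells.

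The regions upstream of these starts are close copies too, and are shown because the 5 genes are low together in sorted cells. RefSeq promoters on GRCm38.p6 were matched for 52 of the 61 members. Among the 9 without a match were Serpina3k, Serpina3m, Serpina6, Serpina9, Serpina10, Serping1 and Serpinb1a, so the motif counts leave out these leading or called members. The 130 bases before the annotated start are given 5′ to 3′ on the strand of the gene, with GTTAAT, letters of the binding motif of hepatocyte nuclear factor 1, in capitals:
Serpina1a (minus strand, chr12:103863620-103863749): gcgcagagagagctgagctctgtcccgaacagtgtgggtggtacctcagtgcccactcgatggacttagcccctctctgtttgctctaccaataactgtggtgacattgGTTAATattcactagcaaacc
Serpina1b (minus strand, chr12:103738190-103738319): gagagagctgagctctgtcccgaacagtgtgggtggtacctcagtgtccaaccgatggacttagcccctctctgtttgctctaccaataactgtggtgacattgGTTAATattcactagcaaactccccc
Serpina1c (minus strand, chr12:103904951-103905080): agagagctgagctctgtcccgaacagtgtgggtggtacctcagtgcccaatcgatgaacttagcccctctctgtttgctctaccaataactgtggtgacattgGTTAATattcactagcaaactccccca
Serpina1d (minus strand, chr12:103773634-103773763): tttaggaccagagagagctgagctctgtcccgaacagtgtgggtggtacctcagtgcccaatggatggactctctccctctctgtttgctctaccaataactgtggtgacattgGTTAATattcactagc
Serpina1e (minus strand, chr12:103956898-103957027): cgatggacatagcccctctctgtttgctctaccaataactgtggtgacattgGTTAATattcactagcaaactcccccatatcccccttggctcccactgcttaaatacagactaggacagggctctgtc
These letters lie in all 5, within the same stretch of shared letters, at 21, 26, 27, 16 and 78 bases before the annotated start in the order shown, since the annotated starts differ. Over their aligned bases the 5 regions were 91.2% to 98.7% identical to each other. Within 250 bases upstream of a start, on either strand, GTTAAT occurs in 6.43% of 32851 mouse promoters, in 6 of the 16 matched serpins that were lower in sorted cells, in 1 of the 7 that were higher, and in 4 of the other 29. Of those 6, 5 are the near-identical Serpina1 copies, so they are not separate cases. The sixth is Serpina7, the thyroxine-binding globulin, whose region also holds TATAAA, the letters of a TATA box, likewise in capitals:
Serpina7 (minus strand, chrX:139085237-139085366): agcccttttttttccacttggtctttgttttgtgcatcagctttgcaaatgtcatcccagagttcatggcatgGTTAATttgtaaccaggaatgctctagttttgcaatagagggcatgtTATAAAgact
CAAAGT, from the motif of hepatocyte nuclear factor 4, was in 6 of the 16 lower and 1 of the 7 higher serpins. It was in 3 of the other 29, beside 12.6% of all promoters. Serpina1a, Serpina1b and Serpina1d are among those 6 and are not separate cases. Serpinb6a is also among them, through only 1 of its annotated starts, and its direction is not settled here. The letters GGAAGT, an ETS core, were in 1 of the 16, 1 of the 7 and 5 of the 29, beside 19.7% of all promoters. TATAAA was in 1 of the 16, 2 of the 7 and 11 of the 29, beside 12.4%. The GC box GGGCGG was in 4 of the 16, 1 of the 7 and 2 of the 29, beside 32.7%. These are matches of letters only, searched on both strands, and no binding was measured.

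The Serpina3 genes, which also descend from repeated duplication, did not behave as a block. Serpina3k, a kallikrein-binding serpin of rodent plasma, had 25742 and 26513 CPM in the bulk libraries and 48.8, 66.4 and 92.2 CPM at the lowest, median and highest sorted library. It was lower in every sorted library, with a log2 difference of -8.62 (SE 0.10, edgeR adjusted p = 1.6e-19). Serpina3g, known from mouse T cells as an inhibitor of lysosomal cathepsins, had 21.9 and 15.4 CPM in bulk liver and 98.7, 107 and 121 in sorted cells. Every sorted library lay above both bulk libraries, by a log2 difference of 2.53 (SE 0.13, edgeR adjusted p = 2.8e-13). Serpina3f, its neighbour, had 6.95 and 5.12 CPM in bulk liver and 20.7, 24.3 and 37.8 in sorted cells, again without overlap, for a log2 difference of 2.04 (SE 0.24, edgeR adjusted p = 1.5e-07).

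The family's makeup therefore differed between the sources. Serpina3k held 97.4% ± 0.0498 of Serpina3 counts in bulk liver (SD, n = 2) and 33.0% ± 3.73 in sorted cells (SD, n = 12). Serpina3g held 0.0697% in bulk liver and 53.9% ± 3.89 in sorted cells, and Serpina3f held 0.0226% and 12.4% ± 1.91. Serpina3n, a mouse relative of human alpha-1 antichymotrypsin, and Serpina3m were lower in sorted cells, with log2 differences of -8.87 and -9.09. Serpina3k and Serpina3m have coding sequences 91.8% identical and share 60 exon bases on the same strand, and Serpina3f and Serpina3g are 87.4% identical over 744 aligned bases. Of the stretches of 75 bases, 5.33% of those of Serpina3f, 7.69% of those of Serpina3g and 7.36% of those of Serpina3k occur in another gene. The remaining Serpina3 genes were barely counted: Serpina3i had 1 count in bulk liver and 13 in sorted cells, Serpina3c had 5 and 2, Serpina3a had 1 and 2, and Serpina3b and Serpina3j had none.

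The upstream regions of Serpina3n, the only lower gene of this family with a matched promoter, and of the 2 higher genes are shown, since related copies went opposite ways. None of the 5 motifs searched lies in these 130 bases, so no letter is in capitals:
Serpina3n (plus strand, chr12:104406578-104406707): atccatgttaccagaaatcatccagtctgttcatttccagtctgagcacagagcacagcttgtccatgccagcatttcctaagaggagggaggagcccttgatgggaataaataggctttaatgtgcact
Serpina3f (plus strand, chr12:104214414-104214543): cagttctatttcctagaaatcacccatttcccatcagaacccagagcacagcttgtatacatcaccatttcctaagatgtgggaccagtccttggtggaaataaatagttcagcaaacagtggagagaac
Serpina3g (plus strand, chr12:104236017-104236146): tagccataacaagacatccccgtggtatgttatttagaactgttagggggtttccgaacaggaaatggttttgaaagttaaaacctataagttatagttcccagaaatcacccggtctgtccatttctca
The regions of Serpina3n and Serpina3f were 71.7% identical over 120 aligned bases although the first gene was lower in sorted cells and the second higher. Serpina3f and Serpina3g, both higher, were 45.8% identical over 120 bases in this window, and Serpina3g and Serpina1a were 48.3% identical over 118. The windows end at RefSeq starts, which can differ from the GENCODE gene starts. That of Serpina3f ends at 104214543, next to its GENCODE start at 104214544. That of Serpina3g ends at 104236146, short of its GENCODE start at 104236245. The 45.8% may therefore compare offset stretches.

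**Figure D4:**
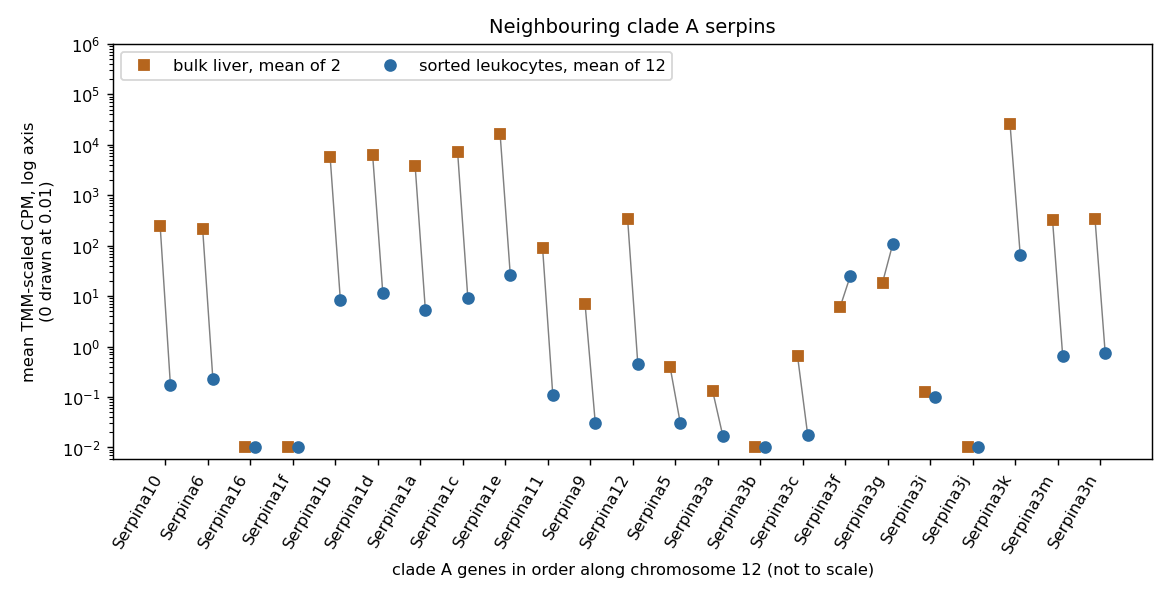
Mean TMM-scaled CPM on a log axis in bulk liver (n = 2) and sorted cells (n = 12) for the 23 clade A genes in their order along chromosome 12, with 0 drawn at 0.01. Serpina3f and Serpina3g are the 2 genes called higher in sorted cells, and they lie between genes that were lower or hardly counted.

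Of the 24 clade A genes 23 lie together on chromosome 12, and Serpina7 lies on the X chromosome. Of the clade, 16 were tested, 14 were lower and 2 higher in sorted cells, with a median log2 difference of -9.36. Over all tested genes 38.5% were lower and 41.8% higher. Members barely counted in sorted cells, such as Serpina7, passed the filter through bulk liver alone. Hormone carriers were among the lowest. Serpina6, the corticosteroid-binding globulin, had 215 and 209 CPM in bulk liver and at most 0.682 in sorted cells, and its log2 difference was -10.12 (-10.77 without the third library at 2500 cells). Serpina7 had 742 counts in the bulk libraries together and 2 in the 12 sorted ones, a bulk to sorted ratio of 6241 with a 95% counting interval of 1722 to 51627. Serpina12, vaspin, an adipokine in fat tissue, had a log2 difference of -9.62. Serpina11, of no settled function, was at -9.60 (-10.23 without the second library at 2500 cells), and 40.8% of its exon bases overlap Gm28577 on the same strand. Serpina9, described in human germinal centre B cells, had 53 counts in bulk liver and 3 in sorted cells, a ratio of 297 with an interval of 96.3 to 1487. Serpina5, the protein C inhibitor, had 3 and 4 counts and was not tested, and Serpina16 and Serpina1f had none.

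Plasma inhibitors of clotting and plasmin, of which 4 were tested in clades A, C, D and F, were lower in sorted cells. Serpinc1, antithrombin, which blocks thrombin and factor Xa, stood at 5584 and 5630 CPM in bulk liver and at 10.0, 12.2 and 17.4 CPM at the lowest, median and highest sorted library. It was low in all sorted libraries, with a log2 difference of -8.78 (SE 0.08, edgeR adjusted p = 5.1e-23). Of its exon bases 34.4% overlap Zbtb37 on the opposite strand. Serpinf2, which inhibits plasmin, stood at 1679 and 1737 CPM in bulk liver and at 2.58, 4.39 and 5.72 in sorted cells, a log2 difference of -8.64 (SE 0.10, edgeR adjusted p = 2.4e-21). Serpind1, heparin cofactor II, and Serpina10, which inhibits factor Xa with protein Z, were at -9.17 (SE 0.11) and -10.34 (SE 0.16).

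The sole clade G member, Serping1, the inhibitor of the complement proteases C1r and C1s and of the contact system, stood at 1995 and 2015 CPM in bulk liver and at 1.33, 3.42 and 5.41 in sorted cells. Its groups were far apart, with a log2 difference of -9.19 (SE 0.08, edgeR adjusted p = 2.9e-25). Serpinf1, the pigment epithelium-derived factor, which inhibits no protease and restrains vessel growth, stood at 1391 and 1445 CPM in bulk liver and at 3.41, 5.54 and 6.96 in sorted cells. It too was lower in each sorted library, with a log2 difference of -8.11 (SE 0.10, edgeR adjusted p = 3.4e-21).

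The serpins of collagen folding and cell surfaces were lower by less. Serpinh1, the collagen chaperone of the endoplasmic reticulum, stood at 32.4 and 36.1 CPM in bulk liver and at 0.545, 1.82 and 2.43 in sorted cells, a log2 difference of -4.31 (SE 0.26, edgeR adjusted p = 5.0e-12). Serpine2, protease nexin, which binds thrombin at cell surfaces, stood at 15.5 and 16.4 CPM in bulk liver and at 0.0966, 2.09 and 4.03 in sorted cells, a log2 difference of -2.91 (SE 0.43, edgeR adjusted p = 8.5e-06). Neither overlapped between the groups in counts, but the sorted libraries of Serpine2 spread widely. By deposited TPM Serpine2 did overlap, with 5.71 and 6.25 in bulk liver and up to 5.80 in sorted cells, and on log2(TPM + 0.1) its call was lost (-1.46, limma adjusted p = 0.0944). Serpine3 had 5 and 70 counts and was not tested, and 24.8% of its exon bases overlap Ints6 on the opposite strand.

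Clade B held most of the members that were higher in sorted cells. Of its 26 genes 9 had no count, 9 more had at most 12 counts over all libraries, and 8 were tested, with a median log2 difference of 2.89. In the test 5 were higher in sorted cells, 1 was lower (Serpinb6a, whose sign turns with the scaling) and 2 were not called. Over all tested genes 41.8% were higher and 38.5% lower. Serpinb7, Serpinb2, Serpinb9b and Serpinb1b, with 1 to 3 counts in bulk liver, passed the filter through sorted cells alone. The median and the number higher are thus partly set by the filter. Serpinb1a, which inhibits neutrophil elastase, cathepsin G and other granule proteases inside cells, stood at 3.74 and 4.61 CPM in bulk liver and at 187, 208 and 230 in sorted cells. All sorted libraries lay far above both bulk libraries, by a log2 difference of 5.62 (SE 0.14, edgeR adjusted p = 2.4e-18). It had the highest deposited TPM of all members in sorted cells, with a median of 157, ahead of Serpina3g with 122 and Serpinb6a with 68.9.

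Paralogs of Serpinb1a and Serpinb6a were uneven. Serpinb6b, a rodent copy of Serpinb6, stood at 5.08 and 7.93 CPM in bulk liver and at 16.2, 24.4 and 27.8 in sorted cells. It was higher in every sorted library, with a log2 difference of 1.83 (SE 0.26, edgeR adjusted p = 3.4e-06). Serpinb6a, an inhibitor of cathepsin G, stood at 68.2 and 71.4 CPM in bulk liver and at 41.0, 47.1 and 52.9 in sorted cells, a log2 difference of -0.57 (SE 0.10, edgeR adjusted p = 2.2e-05). With scaling to library totals the sign turned to 0.63 (adjusted p = 8.9e-06, edgeR), and on log2(TPM + 1) it was 1.25, so its direction is not settled here. Of its exon bases 29.3% overlap genes on the opposite strand, among them Ripk1 and Nqo2. Within the Serpinb6 family Serpinb6b held 8.47% ± 2.17 of counts in bulk liver (SD, n = 2) and 33.0% ± 3.96 in sorted cells (SD, n = 12), a share that does not depend on scaling. Serpinb1b had 3 and 96 counts and was not called (log2 0.87, SE 1.05, adjusted p = 0.454, edgeR), with a sorted to bulk ratio of 1.90 and a 95% counting interval of 0.632 to 9.39.

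Lower levels were seen for the other higher members of clade B. Serpinb9b stood at 0 and 0.512 CPM in bulk liver and at 10.6, 14.4 and 20.3 in sorted cells. With 2 counts in bulk liver, the sorted to bulk ratio was 55.9 with a 95% counting interval of 15.4 to 462 (adjusted p = 1.6e-08, edgeR). Its log2 difference was 5.75, and 4.87 without the first bulk library, which had no count. Serpinb8, which in humans inhibits furin, stood at 3.74 and 6.66 CPM in bulk liver and at 7.84, 10.2 and 15.1 in sorted cells, a log2 difference of 1.01 (SE 0.30, edgeR adjusted p = 0.00482). Its highest bulk library lay close below its lowest sorted library, and without the first bulk library the call was lost (log2 0.72, adjusted p = 0.104). Serpinb7, studied in skin and kidney mesangium, stood at 0.268 and 0 CPM in bulk liver and at 0.826, 2.24 and 3.87 in sorted cells. Its 1 bulk count gives a ratio of 17.7 with an interval of 3.16 to 702 (adjusted p = 4.6e-04, edgeR). The log2 difference was 3.95, and 3.05 without the second bulk library, which had no count. For Serpinb7 and Serpinb9b, leaving out the other bulk library leaves no bulk count to compare with.

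Serpinb2, the plasminogen activator inhibitor of macrophages and placenta, varied widely between sorted libraries. It stood at 0 and 0.256 CPM in bulk liver and at 0, 2.07 and 9.06 in sorted cells, so that the groups overlapped in counts. By the deposited TPM they did not, with 0 and 0.06 TPM in bulk liver and 3.56, 8.47 and 14.1 TPM at the lowest, median and highest sorted library. Its log2 difference was 4.30 with an SE of 2.28 (adjusted p = 0.101, edgeR), and its 1 bulk count gives a sorted to bulk ratio of 22.3 with a 95% counting interval of 3.98 to 883. On log2(TPM + 1) the difference was 3.02 (limma adjusted p = 1.0e-05). Without the first library at 2500 cells, which had no count but 3.65 TPM, the adjusted p was 0.0223, and without the second, which had the highest level, it was 0.0309. Its neighbour Serpinb10, which the annotation classes as a polymorphic pseudogene and which is not among the 61, shares 291 exon bases with it on the same strand. Serpinb10 had 0 counts in bulk liver and 463 in sorted cells. Set against a floor of 3 counts over the bulk group it was at least 9.17-fold higher.

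Among the sparse clade B genes, Serpinb5, known as maspin in epithelium, had 0 counts in bulk liver and 10 in sorted cells, from 2 libraries. Serpinb1c had 0 and 12, from 5 libraries, and Serpinb6d had 0 and 5, from 1 library. Serpinb6c had 2 counts in sorted cells, and Serpinb9g, Serpinb9h, Serpinb11, Serpinb12 and Serpinb13 had 1 each. The Serpinb3 genes, Serpinb6e, and Serpinb9c to Serpinb9f had no count in any library. Of the stretches of 75 bases of Serpinb9f, 65.5% occur in another gene, as do 73.1% of those of Serpinb9h and 44.9% of those of Serpinb9g, so a 0 or a low count there may miss multiply matching reads. Such counts were too few for a comparison.

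Serpini1, neuroserpin, an inhibitor of tissue plasminogen activator best known from neurons, stood at 0.268 and 0.768 CPM in bulk liver and at 21.5, 28.2 and 34.8 in sorted cells. Each sorted library was far above both bulk libraries, with a log2 difference of 5.69 (SE 0.38, edgeR adjusted p = 3.2e-11) that rests on 4 counts in bulk liver and was 6.69 without the second bulk library. Serpini2 had 0 counts in bulk liver and 3 in sorted cells and was not tested.

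Among sorted cells no serpin was called for the number of cells. Of 26 members tested, 0 passed by edgeR for a slope with log2 cell number, beside 0.0811% of all genes, and 4 (15.4%) had an unadjusted p under 0.05, beside 10.7% of all genes. For any difference among the 4 cell numbers 0 passed, beside 0.297% of all genes, and 5 (19.2%) had an unadjusted p under 0.05, beside 10.8% of all genes. DESeq2 and limma-voom also called 0 members in both fits. The lowest adjusted p for a slope was 0.245 (edgeR), for Serpina1e, with a log2 change of -0.17 per doubling of cells. The hepatocyte gene Alb had -0.12 (adjusted p = 0.413, edgeR). Slopes of the 5 hepatocyte markers ran from -0.99 (adjusted p = 0.0723, edgeR) to -0.05 (adjusted p = 0.872, edgeR).

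**Figure D5:**
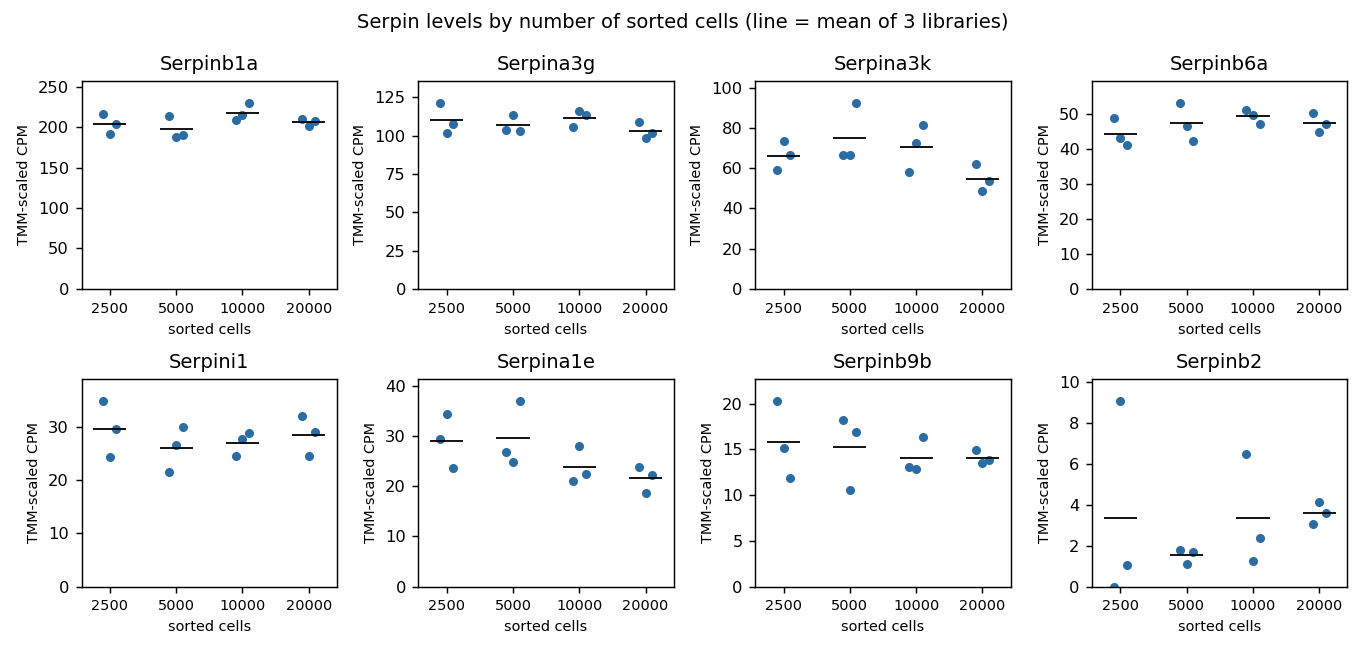
TMM-scaled CPM of 8 serpin genes in the 3 sorted libraries at each of 2500, 5000, 10000 and 20000 cells, with the mean as a line and each axis starting at 0. Serpinb1a stays between 187 and 230 CPM throughout, while Serpinb2 runs from 0 to 9.06.

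The proteases that serpins meet were described in the same fit by lists of genes, whose counts are to be read against the 41.8% of genes higher and 38.5% lower. Of 12 tested proteases of coagulation and fibrinolysis, 11 were lower in sorted cells, 0 were higher and 1 was not called, with a median log2 difference of -8.93. Plg, which encodes plasminogen, was at -9.36, and F2, prothrombin, at -8.91, beside -8.78 for the thrombin inhibitor Serpinc1. All 7 tested complement proteases were lower, with a median of -7.34, among them Cfi at -9.40 and C1s1 at -9.54. Granule proteases of leukocytes went the other way, with 7 of 8 tested higher, 0 lower, 1 not called and a median of 7.87. The other 6 of the 14 listed did not pass the filter. Among these, Elane (neutrophil elastase) had 7 counts in sorted cells and Ctsg (cathepsin G) 12, with 0 in bulk liver for both. Tested genes with 0 counts in bulk liver, such as Cma1, passed the filter through sorted cells alone. The number higher and the median are thus partly set by the filter, and such folds are loose. Gzma, granzyme A, had 1.07 and 1.79 CPM in bulk liver and 302 to 448 in sorted cells, and Gzmb, granzyme B, had 0.268 and 1.02 CPM in bulk liver and 111 to 169 in sorted cells. The lysosomal cathepsins were mixed, with 5 higher and 7 lower of 12 tested and a median of -0.22, but with scaling to library totals 10 were higher and 2 lower, with a median of 0.98. Ctss was higher by 3.18 and Ctsc by 0.66 on the log2 scale, while Ctsb turned from -0.26 to 0.94 between these scalings.

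Other partners were also listed. Of 21 tested inhibitors outside the serpins, 16 were lower, 4 higher and 1 was not called, with a median of -8.95. Among them Ahsg, fetuin, was at -9.92 and Cst3, cystatin C, at 1.36. Of 10 cofactors and receptors, 6 were lower, 2 higher and 2 were not called (5 lower and 4 higher with library totals), with Vtn, vitronectin, an adhesive plasma protein, at -8.96 and Lrp1, a clearance receptor of serpin and protease complexes, at -2.39. Of 8 genes for hormone handling, 7 were lower and 1 was higher (Nr3c1, the glucocorticoid receptor, at 0.66). Of 15 genes for collagens and collagen folding, 13 were lower, 1 was higher and 1 was not called, with a median of -4.33, beside -4.31 for Serpinh1.

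Markers of other cell types were listed in the same way. All 5 hepatocyte markers were lower in sorted cells, none was at 0, and their sum was 97333 and 99771 CPM in bulk liver and 71.1 to 116 CPM in sorted cells. Sorted levels as a percent of bulk were 0.101% for Alb, 0.132% for Apoa1 and 0.0621% for Cyp3a11. They were 0.130% to 0.181% for the Serpina1 copies, 0.176% for Serping1, 0.229% for Serpinc1, 0.255% for Serpina3k and 0.363% for Serpinf1. Serpina10 at 0.0729% and Serpina6 at 0.107% lay within the range of these markers, and Serpina7 at 0.0197% lay below it. Outside the serpins, Plg stood at 0.156% and F2 at 0.212%. The part of hepatocyte RNA in the sorted levels of these serpins was not tested. All 5 markers of stellate cells and fibroblasts were lower, with sums of 369 to 416 CPM in bulk liver and 7.20 to 11.6 in sorted cells and none at 0, beside Serpinh1 and Serpine2. Of 5 sinusoidal endothelium markers 4 were lower and 1 higher, with sums of 305 to 325 and 163 to 207 CPM. The higher marker, Pecam1, stood at 42.3 and 35.3 CPM in bulk liver and at a median of 141 in sorted cells. The lower markers stood at 8.06% to 24.9% of bulk in sorted cells. Of 4 cholangiocyte markers 3 were lower (2 lower and 1 higher with library totals), with sums of 46.5 to 50.2 and 5.51 to 9.87 CPM and Krt19 at 0 in sorted cells. Epcam, not called with TMM scaling (log2 0.04), stood at 5.88 and 6.66 CPM in bulk liver and at 4.54 to 8.41 in sorted cells.

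Within the leukocytes, all 5 general markers were higher in sorted cells, with sums of 121 to 142 CPM in bulk liver and 7705 to 8323 in sorted cells. Of 5 neutrophil markers 3 were higher and 2 were not called. Their sum ran from 431 to 1044 CPM across sorted libraries, while Serpinb1a ran from 187 to 230. All 3 plasma cell markers were higher, with sums of 85.8 to 418 CPM in sorted cells. Of 3 tested platelet markers 1 was higher and 2 were not called, with sums of 3.08 to 11.2 CPM. The 1 tested mast cell marker, Kit, was higher, and Mcpt4 was at 0 in all libraries. The part of any one leukocyte type in the serpin levels was not tested.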

How the data were processed

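RNA of 14 libraries (SMART-seq v4) was compared, 12 from sorted leukocytes and 2 from bulk liver. The authors deposited whole-number read counts per gene and TPM. A further deposited table of variance-stabilised values was not used. Per the submitters' processing notes the tools were FastQC 0.11.5, STAR 2.5.2b, featureCounts 1.5.1, RSEM 1.3.0 and DESeq2 1.34.0, with GRCm38 and with no role given. All 14 count columns were mapped through the labels. Total counts per library, 6723357 to 14496314, set the precision, and intervals cover counting error only.

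Counts were tested with edgeR 4.0.16 in R 4.3.3 (quasi-likelihood, TMM, filterByExpr by group, robust), with Benjamini-Hochberg adjustment over all tested genes and a threshold of 0.05. The contrast was the average over the 4 sorted groups minus bulk liver. A second fit of the 12 sorted libraries tested the slope on the log2 cell number and any difference. Alternatives used DESeq2 1.42.0, limma 3.58.1 (voom on counts, and log2 of TPM plus 1 or 0.1), other scalings, no filter and libraries left out. Shares of counts use library totals.

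Symbols, classes and exons come from GENCODE M21, and 1 member was matched by a synonym. Promoters come from RefSeq. Pseudogenes (7) were left out, as was 1 gene set aside, and values of 1 member are not reported here.

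The members and lists were chosen with earlier results of these data known. Values in each source are given for the 10 members highest in bulk liver by CPM, the 10 highest in sorted cells, and every member that was higher in sorted cells or passed a fit on cell number. Other members are given by counts, ranges or a difference, Serpinh1, Serpine2 and Serpinb2 in full after their values were seen. Of each list up to 3 genes with the highest CPM could be named. Krt19 was named besides, being at 0 in sorted cells, as were Elane and Ctsg, which encode proteases given here as targets of Serpinb1a.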

Additional observations from a re-analysis of the deposited data

How the results depend on the processing

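The 8 higher and 22 lower members became 7 to 10 and 19 to 24 under the alternatives, with 7 to 9 higher and 22 lower when 1 library was left out. Of 828 repeats over single members, 816 kept direction and side of the threshold. Serpinb6a turned to 0.63 with library totals and to 1.25 and 1.27 on log2 TPM plus 1 and plus 0.1. Serpinb8 lost its call without the first bulk library, and Serpine2 on log2 TPM plus 0.1 (log2 -1.46, adjusted p = 0.0944, limma). Serpinb2 gained a call in 7 repeats (DESeq2 adjusted p = 0.0246). Without the filter, 1 of 47 members, Serpina3k, passed for any difference among cell numbers (adjusted p = 0.00186, edgeR, where all genes called rose from 44 to 605). Over all genes DESeq2 called 122 for slope against 12 and 303 for any difference against 44, but no member. Serpins took 3.13% of TPM in bulk liver and 0.0628% in sorted cells. When 1 library was left out their share of counts was 3.83% to 3.91% and 0.0705% to 0.0719%. Counting Serpinb10, an alternative chosen after seeing the data, gave 9 higher. The cause of these shifts was not tested.

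With the replicate number as a block 8 members stayed higher and 22 lower, and over all genes 12951 were called against 13079, 0 for slope against 12 and 55 for any difference against 44. The numbers share no stated source. Same-numbered libraries correlated by -0.111 to 0.221 over 18 pairs, and 7 of 12 libraries matched their own number best.

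Bulk liver had 2 libraries and 1 to 4 counts for several higher members, so their folds are loose.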
